A study of Mus musculus with 12 samples.

Results

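Intact corneas of mice that lack both Dscr1 and Apoe were compared with intact corneas of mice that lack Apoe alone. The double null mice are written Dscr-1-/- and ApoE-/- in the labels and are called double KO here, and the ApoE-/- mice are called ApoeKO. Each group has 2 Affymetrix arrays, taken by their sample titles, so the comparison rests on 4 of the 12 arrays of the study. All mice of these groups are of the C57BL/6J strain, and both groups carry the Apoe mutation, so the groups are meant to differ in Dscr1 alone. The labels describe biological replicates of whole cornea that had not been sutured, and RNA of each mouse was labelled separately. The labels give neither age nor sex. The other intact groups are Dscr1-null (Dscr1KO) and wild-type (WT) corneas with 2 arrays each, and 4 single arrays are from sutured corneas. Of 45101 probe sets, the 34958 with 1 gene symbol were used, and 12711 genes were bright enough to be tested.

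Dscr1 is now called Rcan1 and encodes an inhibitor of calcineurin, the calcium-dependent phosphatase that sends NFAT transcription factors to the nucleus. Apoe encodes apolipoprotein E, which carries cholesterol and other lipids between cells and is bound by receptors of the LDL receptor family. The healthy cornea is clear and free of blood vessels: a stratified, non-keratinized epithelium lies over a collagenous stroma kept by keratocytes, with a single endothelial layer beneath. Epithelia that keratinize, such as the epidermis, instead cross-link proteins into a cornified envelope under the surface of their outermost cells.

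Values are the deposited probe-set intensities, which have a trimmed mean of 100 and a median of 15.6 to 21.1 on every array. A difference is double KO minus ApoeKO on the log2(intensity + 3.6) scale, given with its standard error (SE). It was tested with limma on the 8 intact arrays, with Benjamini-Hochberg adjustment over all 12711 genes, and "rose" and "fell" mean an adjusted p under 0.05. The spread is shared over the 4 intact genotypes, because either group alone has 2 arrays. Pairs of intensities follow the order of replicates 1 and 2. In whole tissue, fewer cells of a type and less RNA per cell cannot be told apart, nor can more cells and more RNA per cell.

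The labels were read against the arrays first. The Rcan1 probe set used read 379.6 and 331.7 in double KO corneas, against 668.2 and 581.3 in ApoeKO corneas, and it fell (-0.81 ± 0.20, adjusted p = 0.0272). The labels do not say which stretch of the gene was removed, and a probe set outside it would keep its signal, so this value does not test the label. Rcan1 missed the threshold with any 1 compared array left out (adjusted p from 0.0628 to 0.176). Apoe read 32.5 and 22.7 in the double KO libraries, against 849.3 in the library labelled ApoeKO replicate 1 and 7.5 in ApoeKO replicate 2. Apoc1, which lies next to Apoe on the chromosome and encodes another apolipoprotein, read 16.6 and 12 in double KO, against 327.8 in the library labelled ApoeKO replicate 1 and 3.5 in ApoeKO replicate 2. WT corneas read 1030.5 and 776.5 for Apoe and 333.9 and 384.7 for Apoc1. The library labelled ApoeKO replicate 1 therefore stood at the WT level for both genes and against its label, and results are given with and without it. A direction stated for ApoeKO corneas therefore sets double KO against 1 library with Apoe signal and 1 without.

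Corneal identity was present on all 4 arrays. Krt12, the keratin of the corneal epithelium, read 7841.2 and 6034.1 in double KO corneas, against 7884 and 6802.8 in ApoeKO corneas. Kera, which encodes the stromal proteoglycan keratocan, read 441.3 and 1677 in double KO corneas, against 3783.2 and 4069.1 in ApoeKO corneas. Slc4a11, a transporter of the corneal endothelium, read 71.1 and 195.9 in double KO corneas, against 319 and 282.2 in ApoeKO corneas. The groups overlapped for Krt12, while both double KO arrays lay below both ApoeKO arrays for Kera and Slc4a11. The double KO replicates differed from each other more than the ApoeKO replicates did, with 1139 genes at least 2-fold apart in double KO, against 377 in ApoeKO. Double KO replicate 1 carried photoreceptor transcripts, whose 25 listed genes summed to 10675.3, against 1172 in double KO replicate 2 and 1455.6 and 1512.9 in ApoeKO. Xist, which is made from inactive X chromosomes, read 4256.9 and 19.6 in double KO, against 4622.1 and 4598 in ApoeKO, and the Y-linked Eif2s3y read 4.2 and 521.5 in double KO, against 9 and 1.5 in ApoeKO. Double KO replicate 2 was thus the 1 array of the 4 with low Xist and high Eif2s3y. The part of these differences in the results below was not tested beyond leaving out each array in turn. A fit with a term for Xist was also run. Among the intact genotypes only double KO holds both high and low Xist. The term therefore gives the same differences here as leaving out double KO replicate 2.

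Of 12711 genes tested, 2476 changed (19.5%). In double KO 1383 rose, which is 10.9% of the genes tested, and 1093 fell, which is 8.6%. At an unadjusted p under 0.05 there were 4382, and the median difference over all genes tested was 0. On all 2476 the double KO arrays lay to one side of the ApoeKO arrays. Over all genes tested, whatever their p, the arrays did not overlap in 32.6% with double KO higher and in 33.5% with double KO lower, so lack of overlap is common here. Where it is stated below for genes that changed, it describes their values and adds no support. With 1 compared array left out, 1322 genes passed without double KO replicate 1 and 2076 without double KO replicate 2. There were 793 without the library labelled ApoeKO replicate 1, of which 636 rose and 157 fell, and 779 of them were among the 2476. Without ApoeKO replicate 2 there were 516, of which 512 were among the 2476. The arrays of the other genotypes set the shared spread: 3918 and 3898 genes passed without Dscr1KO replicate 1 or 2, and 1555 and 1559 without WT replicate 1 or 2. Lists are read against these shares, and 467 genes (386 rises and 81 falls) passed with each of the 4 compared arrays left out.

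**Figure D1:**
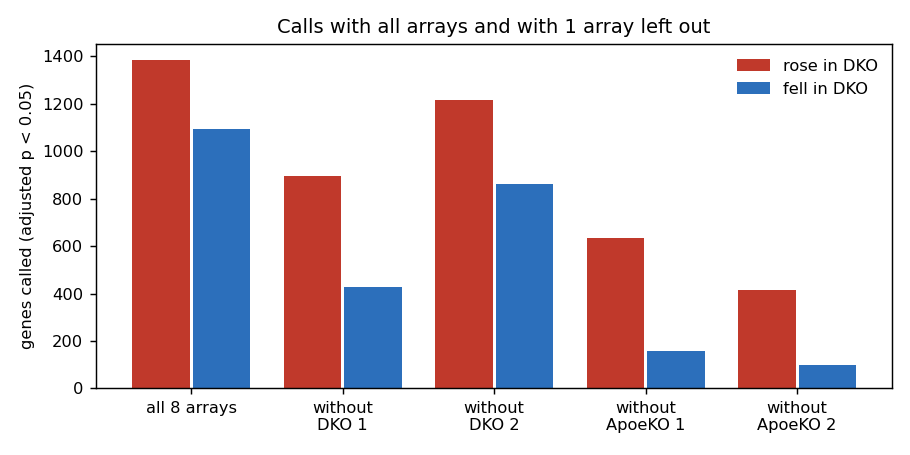
Bars give the number of genes that rose (red) or fell (blue) in double KO relative to ApoeKO at an adjusted p under 0.05, with all 8 intact arrays and with 1 of the 4 compared arrays left out. Rises ran from 416 to 1383 and falls from 100 to 1093, and both were lowest without ApoeKO replicate 2.

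Most genes of the cornified envelope rose. Of 35 tested members of the list, 30 rose and 1 fell, against 10.9% and 8.6% of all genes, and the median difference was 5.59. Rptn, which encodes the envelope precursor repetin, read 5134.3 and 3994.8 in double KO corneas, against 1.6 and 5.7 in ApoeKO corneas, a difference of 9.35 ± 0.36, adjusted p = 1.83e-05. Krtdap, a marker of differentiating keratinocytes, read 5433.2 and 4807 in double KO corneas, against 5.8 and 3.6 in ApoeKO corneas (9.28 ± 0.68, adjusted p = 3.75e-04). Lor, which encodes loricrin, the main protein of the epidermal envelope, read 3186.5 and 3241.9 in double KO corneas, against 15.4 and 14.1 in ApoeKO corneas (7.46 ± 0.17, adjusted p = 1.5e-06), the lowest p of all genes tested. Both double KO arrays were thus more than 100 times brighter for these 3 genes than both ApoeKO arrays, which read below the array median. Some ApoeKO readings of this list lie near or below the 3.6 added before taking logs, so the sizes depend on it: the list's median was 4.97 with 10 added and 5.95 with 1 added. Promoters of some risen members are shown, all of them with an AP-1 site of the form TGANTCA, in capitals. Each is the 300 bases from 250 before the annotated start to 50 after it (RefSeq, GRCm38.p6), 5′ to 3′ on the gene's strand.
Lor (chr3:92083093-92083392, minus strand): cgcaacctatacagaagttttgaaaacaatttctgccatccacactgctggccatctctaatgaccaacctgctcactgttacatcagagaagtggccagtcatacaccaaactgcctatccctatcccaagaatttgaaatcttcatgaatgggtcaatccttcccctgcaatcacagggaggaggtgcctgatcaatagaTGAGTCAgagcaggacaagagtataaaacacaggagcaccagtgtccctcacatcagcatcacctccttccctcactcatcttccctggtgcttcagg
Rptn (chr3:93393449-93393748, plus strand): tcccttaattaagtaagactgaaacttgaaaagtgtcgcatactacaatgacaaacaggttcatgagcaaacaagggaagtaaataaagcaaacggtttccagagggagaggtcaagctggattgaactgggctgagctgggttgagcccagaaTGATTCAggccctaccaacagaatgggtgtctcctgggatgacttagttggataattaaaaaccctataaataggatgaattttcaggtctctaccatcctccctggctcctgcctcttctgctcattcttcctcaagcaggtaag
Krtdap (chr7:30787655-30787954, plus strand): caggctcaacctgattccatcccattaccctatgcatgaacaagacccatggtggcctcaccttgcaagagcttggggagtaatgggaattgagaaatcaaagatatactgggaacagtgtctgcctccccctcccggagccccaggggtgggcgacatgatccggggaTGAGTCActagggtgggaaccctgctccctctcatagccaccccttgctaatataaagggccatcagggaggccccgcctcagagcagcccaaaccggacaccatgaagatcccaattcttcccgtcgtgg
Sprr1b (chr3:92438730-92439029, minus strand): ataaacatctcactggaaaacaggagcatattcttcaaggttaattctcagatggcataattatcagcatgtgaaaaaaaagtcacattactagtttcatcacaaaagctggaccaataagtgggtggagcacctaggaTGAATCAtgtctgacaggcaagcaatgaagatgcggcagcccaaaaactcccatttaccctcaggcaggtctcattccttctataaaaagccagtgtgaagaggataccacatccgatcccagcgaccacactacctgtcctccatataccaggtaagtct
Sprr2f (chr3:92364937-92365236, plus strand): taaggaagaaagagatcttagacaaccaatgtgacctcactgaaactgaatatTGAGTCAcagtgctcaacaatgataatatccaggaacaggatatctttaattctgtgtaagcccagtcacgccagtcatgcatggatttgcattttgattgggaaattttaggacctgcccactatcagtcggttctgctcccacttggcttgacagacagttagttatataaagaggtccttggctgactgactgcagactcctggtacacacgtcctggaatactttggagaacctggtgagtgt
The site began 48 bases before the start in Lor, 96 in Rptn, 81 in Krtdap, 111 in Sprr1b and 197 in Sprr2f. AP-1 is the dimer of Fos and Jun proteins, and TGANTCA, which reads alike on both strands, is the form of its site searched here. It stood in 16 of 36 windows of the tested cornified envelope genes that had one (44.4%), against 7.81% of 32851 promoter windows in the whole table. By gene it stood in 14 of 32 tested members and 13 of the 27 risen members with a window, against 2425 of 27025 genes. Sprr3, Hrnr and Tgm3 are among the risen members without a match. None of the Lce windows held it. A match is a run of letters and was not measured as a bound site.

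Sprr genes encode small proline-rich proteins that transglutaminases join to loricrin. Sprr1b read 3081.1 and 2921.5 in double KO corneas, against 0.2 and 2.9 in ApoeKO corneas (9.24 ± 1.35, adjusted p = 0.00456). Sprr2f read 3022.1 and 3867.3 in double KO corneas, against 8.9 and 6.5 in ApoeKO corneas (8.25 ± 0.40, adjusted p = 4.69e-05). Sprr3, the member typical of moist mucosal epithelia, read 5473.6 and 4623.6 in double KO corneas, against 13 and 6.7 in ApoeKO corneas (8.59 ± 0.58, adjusted p = 2.95e-04). Sprr2d, Sprr2h and Sprr2i rose by 8.54, 8.17 and 7.51, although the Sprr2 and Lce genes are families of near-identical copies, so the share of each member is uncertain. Late cornified envelope genes were uneven between the double KO replicates: Lce1f read 1780 and 627.1 in double KO corneas, against 4.6 and 1.1 in ApoeKO corneas (7.42 ± 0.85, adjusted p = 0.00177), and Lce1i read 1177.6 and 249.2 in double KO corneas, against 9.1 and 6.6 in ApoeKO corneas (5.59 ± 0.77, adjusted p = 0.00368). Lce3f stood higher in ApoeKO than Lce1f and Lce1i, at 5993.5 and 4153.9 in double KO corneas, against 207.3 and 106.4 in ApoeKO corneas (5.03 ± 0.37, adjusted p = 4.03e-04). Lce3c and Lce3a were brighter still in ApoeKO, at 1172.4 and 778.4 for Lce3c and 3141.7 and 2310.7 for Lce3a. Lce3c rose (2.27 ± 0.55, adjusted p = 0.0268), and Lce3a did not pass (0.97 ± 0.43, adjusted p = 0.153). Lor, Rptn, Krtdap, Sprr1b, Sprr2f, Sprr3, Sprr2d, Sprr2h, Sprr2i, Lce1f, Lce1i and Lce3f passed with each compared array left out.

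Genes of filaggrin-type proteins, which bundle keratin filaments, and the genes of the cross-linking enzymes Tgm1 and Tgm3 rose as well. Flg, encoding filaggrin, read 1046.5 and 574.1 in double KO corneas, against 5.1 and 7.7 in ApoeKO corneas (6.30 ± 1.21, adjusted p = 0.0117). Hrnr, encoding hornerin, read 344.3 and 391.9 in double KO corneas, against 0.3 and 0.4 in ApoeKO corneas (6.55 ± 0.67, adjusted p = 0.00118). Tgm3, a transglutaminase of the upper epidermis, read 668.3 and 875.5 in double KO corneas, against 7.1 and 4.4 in ApoeKO corneas (6.38 ± 0.76, adjusted p = 0.0021), and Tgm1, the membrane-bound one, read 865.8 and 1024.7 in double KO corneas, against 157.9 and 135.3 in ApoeKO corneas (2.66 ± 0.50, adjusted p = 0.0108). Both double KO arrays were above both ApoeKO arrays for all 4. Tgm5, another transglutaminase gene, read 320.7 and 278.2 in double KO corneas, against 199.7 and 214.7 in ApoeKO corneas. It did not pass (0.52 ± 0.17, adjusted p = 0.0675). Ivl, which encodes the envelope precursor involucrin, read 49 and 45.9 in double KO corneas, against 80.8 and 77.4 in ApoeKO corneas and did not pass (-0.70 ± 0.27, adjusted p = 0.106). Asprv1, a protease that processes profilaggrin, was the member that fell, at 3765.5 and 3107.9 in double KO corneas, against 5554.9 and 5264 in ApoeKO corneas (-0.66 ± 0.17, adjusted p = 0.0352). Flg missed the threshold without double KO replicate 1, the library labelled ApoeKO replicate 1 or ApoeKO replicate 2 (adjusted p = 0.0662, 0.0729 and 0.0721), Tgm1 missed the threshold without the library labelled ApoeKO replicate 1 or ApoeKO replicate 2 (adjusted p = 0.0583 and 0.0807), and Asprv1 missed the threshold with any 1 compared array left out (adjusted p from 0.058 to 0.2). Lor, Rptn, Krtdap, Hrnr, Tgm3, Sprr1b, Sprr2d, Sprr2f, Sprr2h, Sprr2i, Sprr3, Lce1f, Lce1i and Lce3f passed with each of the 4 compared arrays left out. Without the library labelled ApoeKO replicate 1 the list had 25 rises and 0 falls, and 23 of its rises held in all 4 fits.

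**Figure D2:**
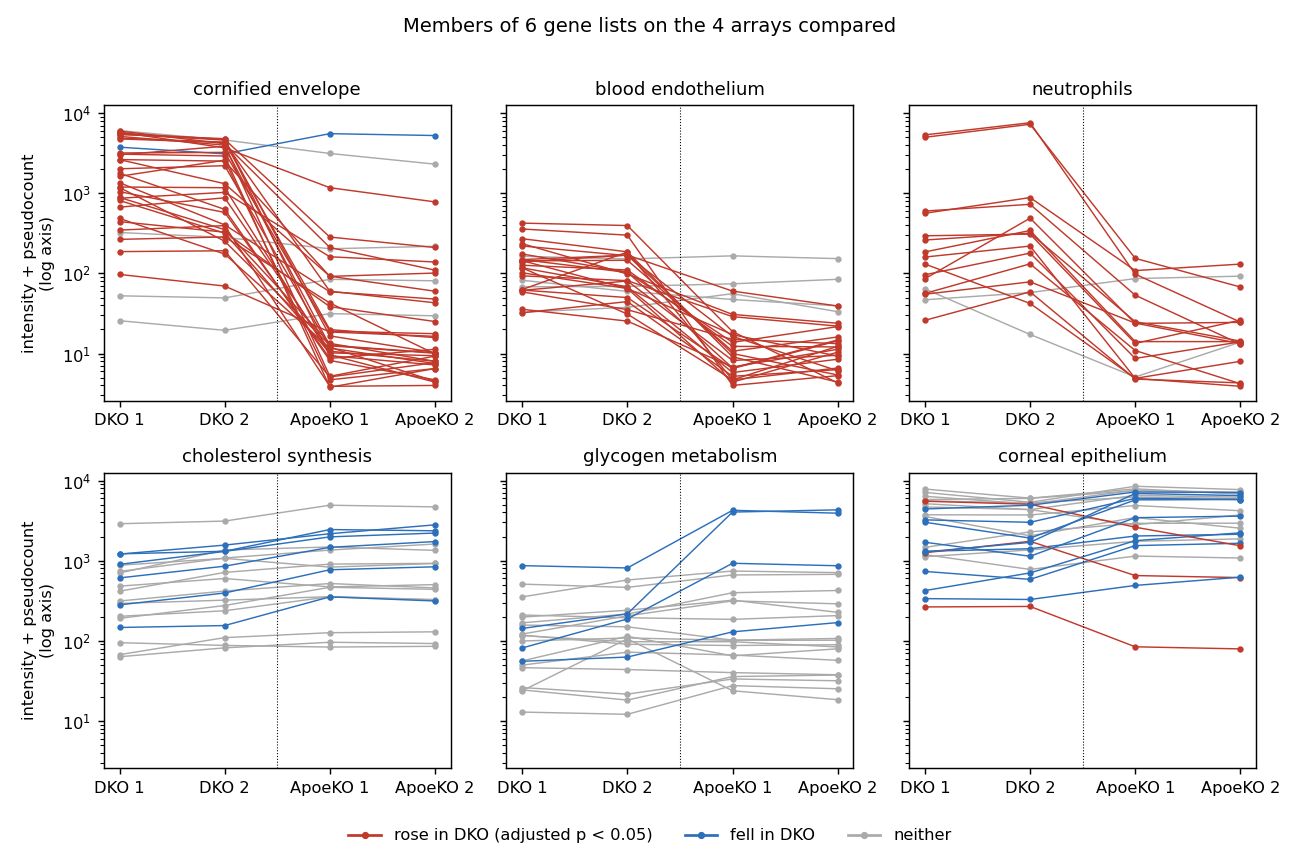
Each line is 1 tested member of a gene list, with intensity + 3.6 on a log axis for the 2 double KO (DKO) and the 2 ApoeKO arrays; red members rose, blue fell and grey did neither. Cornified envelope genes lie mostly above 100 on both double KO arrays and in many cases near 10 on both ApoeKO arrays, while cholesterol synthesis and glycogen genes lie lower in double KO by smaller steps.

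The suprabasal keratin pairs Krt1 with Krt10, of epidermis, and Krt4 with Krt13, of moist mucosa, were higher in double KO. Of 22 keratins tested, 8 rose and 3 fell, with a median of 0.73. Krt10, the suprabasal keratin of epidermis, read 4129.9 and 5826.7 in double KO corneas, against 197.1 and 153.5 in ApoeKO corneas (4.79 ± 0.21, adjusted p = 2.61e-05). Its partner Krt1 read 1040.8 and 2418.9 in double KO corneas, against 31.4 and 15.2 in ApoeKO corneas (5.95 ± 1.11, adjusted p = 0.0105). Krt4, a suprabasal keratin of moist mucosa including conjunctiva, read 9577.1 and 7276.4 in double KO corneas, against 205.8 and 233.9 in ApoeKO corneas (5.23 ± 0.30, adjusted p = 1.12e-04), and its partner Krt13 read 7478.5 and 6861.9 in double KO corneas, against 2115.4 and 2630.3 in ApoeKO corneas (1.60 ± 0.19, adjusted p = 0.00208). Krt17, a keratin of hair follicles and of wounded or stressed epidermis, read 1010.6 and 1794.8 in double KO corneas, against 21.6 and 8.5 in ApoeKO corneas (6.27 ± 0.62, adjusted p = 0.00106). Both pairs of suprabasal keratins and Krt17 were thus higher on both double KO arrays. Of the basal pair, Krt14 rose (1.40 ± 0.36, adjusted p = 0.0334) and Krt5 fell (-0.62 ± 0.16, adjusted p = 0.0362). Krt80 and Krt84 also fell, with differences of -0.67 and -1.31. Krt78 did not pass (0.43 ± 0.37, adjusted p = 0.445). Krt2 and Krt77 were too dim to be tested, and Krt77 read 0.5 and 5.3 in double KO, against 10.5 and 16.6 in ApoeKO. Krt1 missed the threshold without double KO replicate 2 or ApoeKO replicate 2 (adjusted p = 0.0518 and 0.0811), Krt14 missed the threshold with any 1 compared array left out (adjusted p from 0.0553 to 0.215), and Krt5 missed the threshold with any 1 compared array left out (adjusted p from 0.0675 to 0.197). Krt80 and Krt84 missed the threshold without ApoeKO replicate 2 (adjusted p = 0.154 and 0.204). Krt10, Krt4, Krt13 and Krt17 passed with each compared array left out. With the library labelled ApoeKO replicate 1 left out, 6 keratins rose and 0 fell, and without ApoeKO replicate 2 the counts were 4 and 0.

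Proteases that shed the outer cell layers, and protease inhibitors, rose on the same arrays. Of 14 kallikreins and inhibitors tested, 8 rose and 2 fell. Klk13, a secreted serine protease of stratified epithelia, read 3021.6 and 3074.6 in double KO corneas, against 14.6 and 7 in ApoeKO corneas (7.78 ± 0.45, adjusted p = 1.16e-04). Klk7, which cleaves the junctions between corneocytes, read 324.1 and 324.5 in double KO corneas, against 11.7 and 0.9 in ApoeKO corneas (5.30 ± 0.58, adjusted p = 0.00156), and Klk8 rose by 5.10. Prss8, a membrane-anchored protease also called prostasin, fell (-1.12 ± 0.18, adjusted p = 0.00607), as did its inhibitor gene Spint2 (-0.82 ± 0.16, adjusted p = 0.0117). Prss8 missed the threshold without ApoeKO replicate 2 (adjusted p = 0.0702), and Spint2 missed the threshold without the library labelled ApoeKO replicate 1 or ApoeKO replicate 2 (adjusted p = 0.109 and 0.0741). Of 10 clade B serpins, intracellular protease inhibitors, 6 rose and 0 fell. Serpinb3a read 3668.2 and 4141.5 in double KO corneas, against 6.4 and 4.3 in ApoeKO corneas (8.78 ± 0.31, adjusted p = 1.79e-05), Serpinb12 rose by 8.23 and Serpinb2 by 6.30. Klk13, Klk7, Klk8, Serpinb3a, Serpinb12 and Serpinb2 passed with each compared array left out. Without the library labelled ApoeKO replicate 1 the counts were 5 rises and 1 fall for the first list and 4 and 0 for the second, and without ApoeKO replicate 2 they were 3 and 0, and 3 and 0.

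The largest rises also held genes of squamous epithelium outside these lists. Calm4, a calmodulin-like protein of keratinocytes, read 6528 and 5224.1 in double KO corneas, against 25.3 and 16.7 in ApoeKO corneas (7.91 ± 0.33, adjusted p = 2.38e-05). Them5, an acyl-CoA thioesterase gene, read 1255.2 and 1560 in double KO corneas, against 2.2 and 4.1 in ApoeKO corneas (7.71 ± 0.34, adjusted p = 2.87e-05). Mt4, the metallothionein of stratified squamous epithelia, read 2487.3 and 1986.9 in double KO corneas, against 5.8 and 7.5 in ApoeKO corneas (7.77 ± 1.26, adjusted p = 0.00639), and Endou, an endoribonuclease gene, rose by 7.05. Mt4 missed the threshold without ApoeKO replicate 2 (adjusted p = 0.0514). Dsc1, the desmosomal cadherin of the upper epidermis, read 1025.2 and 1858.4 in double KO corneas, against 19 and 21 in ApoeKO corneas (5.88 ± 0.32, adjusted p = 7.51e-05). Calm4, Them5, Endou and Dsc1 passed with each compared array left out.

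Of 16 antimicrobial genes tested, 11 rose and 0 fell, with a median of 4.08, and 11 rose without the library labelled ApoeKO replicate 1. The beta-defensin gene Defb4 read 4077.7 and 2660.3 in double KO corneas, against 2.3 and 3.1 in ApoeKO corneas (9.03 ± 0.38, adjusted p = 2.38e-05), and Defb3 read 2302.1 and 2490.7 in double KO corneas, against 1 and 5 in ApoeKO corneas (8.57 ± 0.33, adjusted p = 1.83e-05). Slpi, which encodes a secreted inhibitor of neutrophil elastase with antibacterial activity, read 5738.3 and 3882.9 in double KO corneas, against 57 and 29.7 in ApoeKO corneas (6.72 ± 0.34, adjusted p = 6.34e-05). Reg3g, a lectin that binds bacterial walls, read 646.5 and 99.1 in double KO corneas, against 1.6 and 0.8 in ApoeKO corneas (5.76 ± 0.76, adjusted p = 0.00321). The double KO replicates lay close together for the first 3 of these genes and far apart for Reg3g. Lcn2, which withholds iron from bacteria by binding their siderophores, rose by 3.69, and Wfdc12 by 6.05. Defb1, a beta-defensin gene that was bright on all 4 arrays, read 1897.2 and 1501 in double KO corneas, against 2325.7 and 2572.4 in ApoeKO corneas and did not pass (-0.53 ± 0.19, adjusted p = 0.0817). Defb4, Defb3, Slpi, Reg3g, Lcn2 and Wfdc12 passed with each compared array left out.

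Markers of neighbouring epithelia were set beside these results. Of 14 tested genes of conjunctiva and goblet cells, 8 rose and 2 fell. The goblet-cell mucin gene Muc5ac read 388.7 and 106.7 in double KO corneas, against 2.2 and 1.7 in ApoeKO corneas (5.23 ± 0.75, adjusted p = 0.00424), and Spdef, a transcription factor of goblet cells, read 33.3 and 31.5 in double KO corneas, against 4.9 and 2.4 in ApoeKO corneas (2.33 ± 0.35, adjusted p = 0.00505). Muc5b, another gel-forming mucin, read 582.1 and 76 in double KO corneas, against 1.9 and 1.6 in ApoeKO corneas (5.34 ± 0.87, adjusted p = 0.00654), and Muc5b missed the threshold without ApoeKO replicate 2 (adjusted p = 0.0545). The 20 listed genes summed to 25304.7 and 20071.8 in double KO and 12220.8 and 12263.5 in ApoeKO. Muc5ac, Muc5b and Spdef were thus higher in double KO. Other goblet-cell genes were too dim to be tested: the trefoil factor gene Tff3 read 4.5 and 1.4 in double KO, against 4.9 and 4.8 in ApoeKO, and the transcription factor gene Foxa3 read 11.3 and 1.2 in double KO, against 5.3 and 2.7 in ApoeKO. Clca1, which encodes a secreted protein of goblet cells, read 5.9 and 4.9 in double KO, against 0.4 and 2.8 in ApoeKO. Tff2, another trefoil factor gene, read 72.4 and 9.8 in double KO, against 1 and 3.5 in ApoeKO. Of these 4, Tff2 in double KO replicate 1 was the 1 reading well above the others. The part of such cells in the rise of the epithelial genes was not tested. The 2 that fell were the mucus-layer gene Fcgbp (-1.05) and the water channel gene Aqp5 (-1.02), with adjusted p of 0.0366 and 0.00881. Fcgbp missed the threshold without double KO replicate 2, the library labelled ApoeKO replicate 1 or ApoeKO replicate 2 (adjusted p = 0.125, 0.232 and 0.0888), and Aqp5 missed the threshold without the library labelled ApoeKO replicate 1 or ApoeKO replicate 2 (adjusted p = 0.0771 and 0.0754). When the library labelled ApoeKO replicate 1 was left out, 6 of this list rose and 0 fell, and without ApoeKO replicate 2 the counts were 4 and 0. Of 6 tested sebaceous and meibomian gland genes, the lipid droplet genes Cidea and Plin2 rose (differences of 2.80 and 0.77) and Scd1 and Ppara fell (-1.16 and -1.51). Cidea, Plin2 and Ppara missed the threshold without ApoeKO replicate 2 (adjusted p = 0.0756, 0.239 and 0.166).

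Part of the corneal epithelial list was lower. Of 24 tested genes, 9 fell and 3 rose, with a median of -0.44, and the list summed to 77122.4 and 69380.8 in double KO and 99679.7 and 94796.6 in ApoeKO. Slurp1, a small secreted protein abundant in corneal epithelium, read 1282.8 and 1691.1 in double KO corneas, against 6914.1 and 6494.3 in ApoeKO corneas (-2.18 ± 0.29, adjusted p = 0.00317). Pax6, the master regulator of eye and corneal epithelial identity, read 1696.4 and 1133.1 in double KO corneas, against 3440.7 and 3600.6 in ApoeKO corneas (-1.34 ± 0.38, adjusted p = 0.0435). Elf3, an epithelial ETS-family transcription factor, read 731.1 and 581.6 in double KO corneas, against 1540.5 and 1647.7 in ApoeKO corneas (-1.28 ± 0.21, adjusted p = 0.00607). Muc4, a membrane mucin of the ocular surface, read 3231.3 and 3013.2 in double KO corneas, against 5999.7 and 5805.2 in ApoeKO corneas (-0.92 ± 0.19, adjusted p = 0.016). For all 4, both double KO arrays lay below both ApoeKO arrays. Krt12 did not pass (-0.09 ± 0.24, adjusted p = 0.821), nor did Aldh3a1, the crystallin-like aldehyde dehydrogenase of the corneal epithelium (-0.34 ± 0.20, adjusted p = 0.252). Gjb6 and Gjb2, gap junction genes of keratinizing and wounded epithelium, rose by 1.71 and 1.23, with Krt14 as the remaining rise. Pax6 missed the threshold with any 1 compared array left out (adjusted p from 0.0749 to 0.193), Elf3 missed the threshold without ApoeKO replicate 2 (adjusted p = 0.0636), Muc4 missed the threshold with any 1 compared array left out (adjusted p from 0.0586 to 0.109), and Gjb2 missed the threshold with any 1 compared array left out (adjusted p from 0.0607 to 0.165). Without the library labelled ApoeKO replicate 1, 3 fell and 1 rose, and without ApoeKO replicate 2 the counts were 1 and 1. Slurp1 and Gjb6 passed with each compared array left out.

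Junction and growth-factor receptor genes showed falls more often than rises. Of 28 genes of epithelial junctions, 11 fell and 2 rose, with a median of -0.74. Dsg1a, a desmosomal cadherin, read 420.2 and 700.9 in double KO corneas, against 1776.5 and 2226.4 in ApoeKO corneas (-1.87 ± 0.44, adjusted p = 0.0231). Frem2, which anchors epithelia to the basement membrane together with Fras1, read 34.2 and 18.1 in double KO corneas, against 352.4 and 345 in ApoeKO corneas (-3.62 ± 0.63, adjusted p = 0.00813). Fras1 itself had a difference of -2.08. The tight junction genes Cldn7 and Tjp3 fell, with differences of -1.08 and -1.50. The 2 rises were Dsc1, given above, and Cldn8, a claudin (1.95 ± 0.31, adjusted p = 0.00585). Of 11 genes of the EGF receptor family and its ligands, 5 fell and 1 rose. Egfr, the receptor that drives corneal epithelial renewal, read 334.2 and 463.5 in double KO corneas, against 1111.9 and 1143.8 in ApoeKO corneas (-1.51 ± 0.24, adjusted p = 0.00562). The receptor gene Erbb2 and the ligand genes Nrg1, Egf and Btc also fell, with differences of -0.65, -1.47, -1.10 and -0.86, and the ligand gene Ereg rose by 1.22. Double KO arrays were below both ApoeKO arrays for each of the genes that fell. With the library labelled ApoeKO replicate 1 left out, 2 junction genes and 2 EGF family genes fell, and without ApoeKO replicate 2 both counts were 0. Dsg1a missed the threshold without double KO replicate 1, the library labelled ApoeKO replicate 1 or ApoeKO replicate 2 (adjusted p = 0.123, 0.0884 and 0.144), Frem2 missed the threshold without the library labelled ApoeKO replicate 1 or ApoeKO replicate 2 (adjusted p = 0.0547 and 0.0636), and Egfr missed the threshold without ApoeKO replicate 2 (adjusted p = 0.0553). Erbb2, Nrg1 and Btc missed the threshold without ApoeKO replicate 2 (adjusted p = 0.221, 0.0996 and 0.157). With the library labelled ApoeKO replicate 1 set aside, the adjusted p was 0.139 for Cldn7, 0.082 for Tjp3, 0.117 for Fras1, 0.102 for Egf and 0.122 for Ereg.

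The largest single fall was in glycogen metabolism. Ppp1r3c, which encodes a subunit that targets a phosphatase to glycogen, read 139.1 and 213.7 in double KO corneas, against 4045.1 and 4312.9 in ApoeKO corneas (-4.57 ± 0.95, adjusted p = 0.015). Pygl, a glycogen phosphorylase, read 77.9 and 183.9 in double KO corneas, against 925.1 and 861.9 in ApoeKO corneas (-2.86 ± 0.67, adjusted p = 0.0236). Gyg, the glycogenin that primes a new glycogen particle, read 864.2 and 808.6 in double KO corneas, against 4254.6 and 3916 in ApoeKO corneas (-2.28 ± 0.34, adjusted p = 0.00463), and the branching enzyme gene Gbe1 fell (-1.33 ± 0.31, adjusted p = 0.0218). Of 21 tested genes of the list these 4 fell and 0 rose, with a median of -0.45, so 17 members did not pass. Every double KO array was below every ApoeKO array for these 4 genes. Ppp1r3c missed the threshold without double KO replicate 1, the library labelled ApoeKO replicate 1 or ApoeKO replicate 2 (adjusted p = 0.0804, 0.0799 and 0.0922), Pygl missed the threshold without double KO replicate 1, the library labelled ApoeKO replicate 1 or ApoeKO replicate 2 (adjusted p = 0.126, 0.116 and 0.117), and Gbe1 missed the threshold with any 1 compared array left out (adjusted p from 0.0535 to 0.161). Gyg passed with each compared array left out.

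Other large falls spanned unrelated functions. Slc16a12, a transporter of the monocarboxylate family, read 58.7 and 74.9 in double KO corneas, against 783.1 and 458.6 in ApoeKO corneas (-3.11 ± 0.48, adjusted p = 0.00555). Scin, which encodes an actin-severing protein, read 279.4 and 379.2 in double KO corneas, against 2116.1 and 2161.1 in ApoeKO corneas (-2.70 ± 0.34, adjusted p = 0.00261). Adtrp, a hydrolase gene, read 83.1 and 116.9 in double KO corneas, against 712.4 and 843 in ApoeKO corneas (-2.93 ± 0.31, adjusted p = 0.00138). Tnfrsf11b, which encodes osteoprotegerin, a decoy receptor for the cytokine RANKL, read 4.9 and 8.9 in double KO corneas, against 70 and 60.1 in ApoeKO corneas (-2.73 ± 0.33, adjusted p = 0.0024). Gkn1, Paqr5, Fam184b and Med12l fell with differences between -3.20 and -2.83. These 8 passed with each compared array left out. Cyp4a12a, a fatty acid hydroxylase, read 178.8 and 201.3 in double KO corneas, against 1217.1 and 1564.3 in ApoeKO corneas (-2.84 ± 0.46, adjusted p = 0.00639), and Cyp4a12a missed the threshold without ApoeKO replicate 2 (adjusted p = 0.0606).

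Of 28 tested keratocyte and stromal genes, 10 rose and 1 fell, with a median of 0.61. Kera was the one that fell (-2.18 ± 0.55, adjusted p = 0.03), and Kera missed the threshold without double KO replicate 1, the library labelled ApoeKO replicate 1 or ApoeKO replicate 2 (adjusted p = 0.0693, 0.123 and 0.15). The small proteoglycan genes Aspn and Omd rose: Aspn read 75.8 and 309.7 in double KO corneas, against 16.9 and 7.3 in ApoeKO corneas (3.40 ± 0.65, adjusted p = 0.0117) and Omd read 100.8 and 194.5 in double KO corneas, against 14.9 and 5.3 in ApoeKO corneas (3.49 ± 0.58, adjusted p = 0.00698). Both encode leucine-rich proteins better known from cartilage and bone. Pdgfra, a receptor of fibroblasts, read 788.7 and 645.9 in double KO corneas, against 218.6 and 204.4 in ApoeKO corneas (1.74 ± 0.17, adjusted p = 0.00106), and passed with each compared array left out. Aspn missed the threshold without ApoeKO replicate 2 (adjusted p = 0.0911), and Omd missed the threshold without ApoeKO replicate 2 (adjusted p = 0.0634). When the library labelled ApoeKO replicate 1 was left out, 5 of the list rose and 0 fell, and without ApoeKO replicate 2 the counts were 1 and 0. Of 14 corneal endothelial genes, 3 rose and 2 fell. The carbonic anhydrase genes Car2 and Car12 and the lactate transporter gene Slc16a1, which other cells also express, rose by 5.70, 5.23 and 2.61. Tjp1 and Enpep fell, with differences of -0.89 and -2.54, and Slc4a11 did not pass (-1.31 ± 0.57, adjusted p = 0.147). Tjp1 and Enpep missed the threshold without ApoeKO replicate 2 (adjusted p = 0.082 and 0.179), while Car2, Car12 and Slc16a1 passed with each compared array left out. The listed endothelial genes summed to 6637.6 and 11589.2 in double KO and 15189.3 and 16022.4 in ApoeKO.

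Genes of wound fibroblasts and the provisional matrix rose in larger number. Of 24 tested, 15 rose and 2 fell, with a median of 1.75, and 7 did not pass. Those 7 included the smooth muscle actin gene Acta2, with 153.4 and 461 in double KO, against 244.2 and 220.8 in ApoeKO (0.20 ± 0.63, adjusted p = 0.852). The fibronectin gene Fn1 (0.59 ± 0.22, adjusted p = 0.102) was another, and Vim, Thbs1, Loxl3, Ccn1 and Tgfb1 were the rest. Postn, which encodes the matricellular protein periostin, read 2832.6 and 2710.5 in double KO corneas, against 150.3 and 82.8 in ApoeKO corneas (4.59 ± 0.31, adjusted p = 2.78e-04). Tnc, encoding tenascin-C, read 643.9 and 695.9 in double KO corneas, against 78.9 and 10.7 in ApoeKO corneas (4.29 ± 0.76, adjusted p = 0.00851). Col3a1, the collagen III chain laid down in healing tissue, read 5739.4 and 5499 in double KO corneas, against 424.6 and 60.2 in ApoeKO corneas (5.09 ± 0.76, adjusted p = 0.00479). Lox, which cross-links collagen, read 1043.4 and 513.1 in double KO corneas, against 82.1 and 65.7 in ApoeKO corneas (3.25 ± 0.38, adjusted p = 0.00201). For Tnc and Col3a1 the library labelled ApoeKO replicate 1 lay several-fold above ApoeKO replicate 2, and both were far below double KO. Col18a1, source of the angiogenesis inhibitor endostatin, rose by 3.05 and Sparc by 1.84. Postn, Tnc, Col3a1, Lox, Col18a1 and Sparc passed with each compared array left out, and 12 genes rose and 0 fell without the library labelled ApoeKO replicate 1. The 2 that fell were Tgfbi, the keratoepithelin gene (-0.67 ± 0.20, adjusted p = 0.0492), and the receptor gene Tgfbr1 (-0.84 ± 0.17, adjusted p = 0.0132). Tgfbi missed the threshold with any 1 compared array left out (adjusted p from 0.0578 to 0.245), and Tgfbr1 missed the threshold without double KO replicate 1, the library labelled ApoeKO replicate 1 or ApoeKO replicate 2 (adjusted p = 0.0521, 0.0995 and 0.0911).

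Of 17 matrix metalloproteinases, related proteases and their inhibitors, 11 rose and 0 fell. Mmp3, or stromelysin, read 5161.9 and 5348.3 in double KO corneas, against 767.7 and 21.4 in ApoeKO corneas (5.24 ± 1.42, adjusted p = 0.0381). Mmp13, a collagenase, read 3238.3 and 1434.6 in double KO corneas, against 182.6 and 10.5 in ApoeKO corneas (5.40 ± 1.09, adjusted p = 0.0136). Mmp2 and Mmp9, both gelatinases, rose by 2.98 and 3.93. The library labelled ApoeKO replicate 1 read 767.7 for Mmp3 and 182.6 for Mmp13, between ApoeKO replicate 2 and double KO. Mmp3 missed the threshold without double KO replicate 1, double KO replicate 2 or ApoeKO replicate 2 (adjusted p = 0.131, 0.113 and 0.134), and Mmp13 missed the threshold without double KO replicate 1 (adjusted p = 0.0798). Without the library labelled ApoeKO replicate 1, 7 rose. Without ApoeKO replicate 2 the count was 4, and without double KO replicate 1 it was 5. Mmp2 and Mmp9 passed in all 4 of these fits.

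Most blood endothelial genes were higher in double KO corneas. Of 26 tested blood endothelial genes, 22 rose and 0 fell, with a median of 2.92. Vwf, which encodes von Willebrand factor, read 355.3 and 296.9 in double KO corneas, against 0.4 and 1.7 in ApoeKO corneas (6.16 ± 0.33, adjusted p = 7.51e-05). Plvap, which forms the diaphragms of fenestrated capillaries, read 421.3 and 392.8 in double KO corneas, against 15.2 and 0.7 in ApoeKO corneas (5.51 ± 0.59, adjusted p = 0.0014). Cdh5, the cadherin of endothelial junctions, read 123.1 and 106.9 in double KO corneas, against 8.7 and 8.5 in ApoeKO corneas (3.28 ± 0.40, adjusted p = 0.00232). Selp, encoding the leukocyte adhesion molecule P-selectin, read 145.4 and 165.3 in double KO corneas, against 6.4 and 1.8 in ApoeKO corneas (4.43 ± 0.40, adjusted p = 8e-04). Double KO arrays read at least 106.9 for these 4 genes and ApoeKO arrays at most 15.2. Pecam1, Emcn, Esam and Mmrn2 rose by 3.67, 3.84, 3.77 and 5.15. Not all of the list followed. Kdr, a receptor for vascular endothelial growth factor, read 64.5 and 65.4 in double KO corneas, against 70.6 and 80.9 in ApoeKO corneas, and Erg, a transcription factor of endothelial cells, read 160 and 148.2 in double KO corneas, against 162.2 and 149.5 in ApoeKO corneas, and neither passed (differences of -0.21 ± 0.21, adjusted p = 0.531, and of -0.02 ± 0.23, adjusted p = 0.967). Vwf, Plvap, Cdh5, Selp, Pecam1, Emcn, Esam and Mmrn2 passed with each compared array left out. With the library labelled ApoeKO replicate 1 left out, 15 rose, and without ApoeKO replicate 2 the count was 14. The 29 listed genes summed to 3572.5 and 2938.9 in double KO and 551.4 and 505 in ApoeKO.

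Mural and lymphatic genes rose on the same arrays. Of 10 pericyte and smooth muscle genes tested, 6 rose and 1 fell. Rgs5, a marker of pericytes, read 2330.9 and 2099.7 in double KO corneas, against 10.6 and 17 in ApoeKO corneas (7.02 ± 0.56, adjusted p = 5.13e-04). Abcc9 and Kcnj8, subunits of the potassium channel of pericytes, rose by 3.70 and 3.70. Notch3, a receptor of mural cells that epithelia also express, fell (-1.23 ± 0.18, adjusted p = 0.00449). Of 11 lymphatic endothelial genes 7 rose and 0 fell, with a median of 2.68, and the same number rose without the library labelled ApoeKO replicate 1. Lyve1, a hyaluronan receptor of lymphatic vessels and some macrophages, read 597.6 and 192.9 in double KO corneas, against 0.4 and 1.1 in ApoeKO corneas (6.31 ± 0.63, adjusted p = 0.00107). Flt4, the receptor for the lymphatic growth factor encoded by Vegfc, read 88 and 77.9 in double KO corneas, against 8.3 and 11.7 in ApoeKO corneas (2.68 ± 0.39, adjusted p = 0.0044), and Reln rose by 3.85. Rgs5, Abcc9, Kcnj8, Notch3, Lyve1, Flt4 and Reln passed with each compared array left out. For Lyve1, double KO replicate 1 was well above double KO replicate 2.

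Angiogenic factors had a smaller share of rises than the vessel markers. Of 18 tested, 6 rose and 1 fell, with a median of 0.76. Cxcl12, a chemokine of stromal and perivascular cells, read 616.2 and 1196.9 in double KO corneas, against 45.9 and 28.3 in ApoeKO corneas (4.44 ± 0.41, adjusted p = 8.27e-04). Angpt1, a ligand of the endothelial receptor encoded by Tek, read 58.4 and 89.4 in double KO corneas, against 5.8 and 8.8 in ApoeKO corneas (2.81 ± 0.33, adjusted p = 0.00202). The lymphangiogenic factor Vegfc rose by 1.09, and the inhibitor Serpinf1, or PEDF, by 0.99. Jag1, a Notch ligand, was the 1 that fell (-1.02). Vegfa, the main angiogenic factor, read 100.3 and 83.5 in double KO, against 85.4 and 72 in ApoeKO and did not pass (0.21 ± 0.37, adjusted p = 0.72). Cxcl12 and Angpt1 passed with each compared array left out, and they were the 2 rises without the library labelled ApoeKO replicate 1 and without ApoeKO replicate 2. Vegfc missed the threshold with any 1 compared array left out (adjusted p from 0.0649 to 0.172), and Serpinf1 missed the threshold with any 1 compared array left out (adjusted p from 0.0735 to 0.121). Jag1 missed the threshold with any 1 compared array left out (adjusted p from 0.0698 to 0.131).

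**Figure D3:**
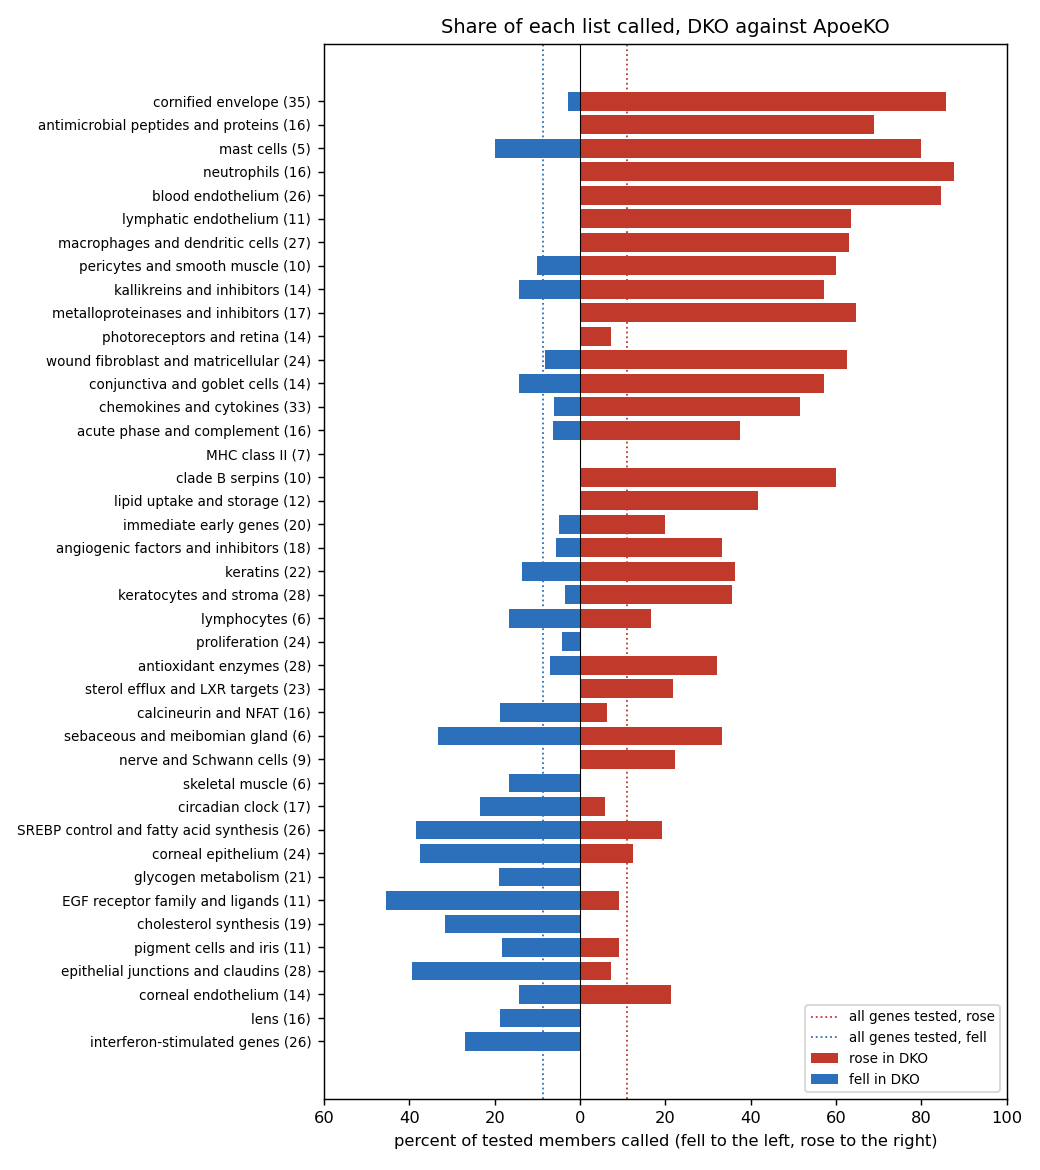
Bars give the percent of tested members of each list that rose in double KO (red, to the right) or fell (blue, to the left), with the number tested in brackets and the lists ordered by their median difference. The dotted lines mark 10.9% and 8.6%, the shares of all 12711 genes that rose and fell.

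Neutrophil genes rose in nearly all tested cases. The array held 20 of the listed genes, and 16 were bright enough to be tested. Of these 16, 14 rose and 0 fell, with a median of 3.62. S100a8 and S100a9, the subunits of calprotectin, are made in quantity by neutrophils and by activated keratinocytes. S100a8 read 5361.4 and 7603.8 in double KO corneas, against 94.3 and 21.1 in ApoeKO corneas (7.02 ± 0.62, adjusted p = 7.27e-04), and S100a9 read 5004.5 and 7277.4 in double KO corneas, against 150.7 and 64.1 in ApoeKO corneas (5.88 ± 0.51, adjusted p = 6.87e-04). Stfa2l1, a stefin of neutrophils, read 182 and 340.1 in double KO corneas, against 10.5 and 10.5 in ApoeKO corneas (4.16 ± 0.43, adjusted p = 0.00122). Il1r2, the decoy receptor for interleukin-1, read 291.7 and 305.9 in double KO corneas, against 9.8 and 22.5 in ApoeKO corneas (4.01 ± 0.36, adjusted p = 7.39e-04), and Cxcr2, a chemokine receptor of neutrophils, read 22.4 and 55.3 in double KO corneas, against 1.2 and 0.7 in ApoeKO corneas (3.11 ± 0.51, adjusted p = 0.00686). All double KO arrays were above all ApoeKO arrays for these genes. Cxcr2 missed the threshold without ApoeKO replicate 2 (adjusted p = 0.0563). When the library labelled ApoeKO replicate 1 was left out, 11 rose, and S100a8, S100a9, Stfa2l1 and Il1r2 passed with each compared array left out. The 20 listed genes summed to 12987.8 and 18719.1 in double KO and 599.6 and 425.8 in ApoeKO, and most of the double KO sums came from S100a8 and S100a9.

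Macrophage and dendritic cell genes rose less far. Of 27 tested, 17 rose and 0 fell, with a median of 2.24, and 15 rose without the library labelled ApoeKO replicate 1. Csf1r, the receptor for the macrophage growth factor, read 1027.5 and 1427.9 in double KO corneas, against 326 and 158.5 in ApoeKO corneas (2.39 ± 0.34, adjusted p = 0.0041). Mrc1, the mannose receptor, read 325.8 and 307 in double KO corneas, against 32 and 22.3 in ApoeKO corneas (3.40 ± 0.27, adjusted p = 5.13e-04). The complement gene C1qa read 590.3 and 812.9 in double KO corneas, against 106.7 and 66.6 in ApoeKO corneas (2.98 ± 0.42, adjusted p = 0.00416). Gpnmb, a glycoprotein of phagocytic and pigment cells, read 1034 and 1317.5 in double KO corneas, against 364.6 and 268.3 in ApoeKO corneas (1.89 ± 0.24, adjusted p = 0.00282). Double KO replicate 2 was higher than replicate 1 for Csf1r, C1qa and Gpnmb, and the library labelled ApoeKO replicate 1 was higher than ApoeKO replicate 2 for all 4. Cd14, a receptor for bacterial lipopolysaccharide, rose by 3.60. Csf1r, Mrc1, C1qa, Gpnmb and Cd14 passed with each compared array left out, and these were 5 of the 8 rises that the list had without ApoeKO replicate 2. The 27 listed genes summed to 9794.9 and 15408.1 in double KO and 3412.4 and 1829.9 in ApoeKO.

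Other immune lists were smaller or mixed. Of 7 tested MHC class II genes, 0 rose and 0 fell. H2-Aa, a class II chain, read 348.6 and 1310.7 in double KO corneas, against 218.8 and 203.6 in ApoeKO corneas (1.66 ± 0.61, adjusted p = 0.096), with double KO replicate 2 several-fold above the other 3 arrays. Of 11 listed mast cell genes on the array, 5 were bright enough to be tested, and 4 of these rose and 1 fell. Cpa3, a mast cell carboxypeptidase, read 209.1 and 174.5 in double KO corneas, against 2 and 8.1 in ApoeKO corneas (4.59 ± 0.65, adjusted p = 0.00414), and Cma1, a chymase, rose by 3.92. Mcpt1, another mast cell protease, rose by 3.40, and Hdc, which makes histamine and is shared with neutrophils, by 5.42. Cpa3, Cma1, Mcpt1 and Hdc passed with each compared array left out. Kit, the receptor of mast cells and melanocytes, fell (-2.39 ± 0.56, adjusted p = 0.0223), and Kit missed the threshold with any 1 compared array left out (adjusted p from 0.0574 to 0.133). Of 6 tested lymphocyte genes, Ptprc, the pan-leukocyte phosphatase, rose (3.12 ± 0.75, adjusted p = 0.0255). Klra8, a receptor of natural killer cells, fell, at 51.8 and 96.9 in double KO corneas, against 636.8 and 652.2 in ApoeKO corneas (-3.12 ± 0.79, adjusted p = 0.0312). Ptprc missed the threshold without double KO replicate 2 or ApoeKO replicate 2 (adjusted p = 0.0996 and 0.166), and Klra8 missed the threshold with any 1 compared array left out (adjusted p from 0.0619 to 0.148). The 17 listed lymphocyte genes summed to 1189.8 and 1129.3 in double KO and 805.3 and 762.3 in ApoeKO, where Klra8 made up most of the sum.

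Of 33 chemokine and cytokine genes tested, 17 rose and 2 fell. Cxcl5, which attracts neutrophils through Cxcr2, read 341.5 and 2221.2 in double KO corneas, against 18.9 and 6.9 in ApoeKO corneas (5.83 ± 0.83, adjusted p = 0.00414). Il1b, the inflammatory cytokine interleukin-1 beta, read 190.6 and 1034.2 in double KO corneas, against 21.4 and 15.6 in ApoeKO corneas (4.36 ± 0.67, adjusted p = 0.00536). Il1f6, an epithelial cytokine of the interleukin-36 group, read 665.4 and 1081.3 in double KO corneas, against 121.6 and 180.4 in ApoeKO corneas (2.49 ± 0.34, adjusted p = 0.00349). For Cxcl5 and Il1b, double KO replicate 2 was several-fold above double KO replicate 1. Il1rn, the receptor antagonist of interleukin-1, rose by 2.05. The 2 that fell were Il1a (-1.17 ± 0.34, adjusted p = 0.0497) and Il18 (-0.87 ± 0.20, adjusted p = 0.0218), both epithelial cytokines. Il1b missed the threshold without ApoeKO replicate 2 (adjusted p = 0.0514), Il1a missed the threshold without double KO replicate 1, the library labelled ApoeKO replicate 1 or ApoeKO replicate 2 (adjusted p = 0.124, 0.196 and 0.2), and Il18 missed the threshold without double KO replicate 1, the library labelled ApoeKO replicate 1 or ApoeKO replicate 2 (adjusted p = 0.0992, 0.122 and 0.132). With the library labelled ApoeKO replicate 1 set aside, 11 rose and 0 fell, and without ApoeKO replicate 2 the counts were 5 and 0. Cxcl5, Il1f6 and Il1rn passed in all 4 leave-out fits. Of 16 acute phase and complement genes 6 rose and 1 fell, and Hp, encoding the haemoglobin-binding protein haptoglobin, read 755.7 and 329.7 in double KO corneas, against 1.7 and 0.6 in ApoeKO corneas (6.74 ± 0.71, adjusted p = 0.00134), and passed with each compared array left out. Cd55, an inhibitor of complement, was the 1 that fell (-1.27 ± 0.34, adjusted p = 0.0349), and Cd55 missed the threshold without double KO replicate 1, the library labelled ApoeKO replicate 1 or ApoeKO replicate 2 (adjusted p = 0.135, 0.15 and 0.178).

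Interferon-stimulated genes went the other way. Of 26 tested, 0 rose and 7 fell, with a median of -1.17. Ifit1, which binds foreign RNA, read 85.3 and 115.3 in double KO corneas, against 304.2 and 531.6 in ApoeKO corneas (-1.98 ± 0.51, adjusted p = 0.0334). Its promoter window (RefSeq, GRCm38.p6) is shown with its 2 matches to an interferon response element in capitals (GAAA, any 2 bases, then GAAAC, here on the opposite strand), beginning 105 and 86 bases before the start.
Ifit1 (chr19:34640639-34640938, plus strand): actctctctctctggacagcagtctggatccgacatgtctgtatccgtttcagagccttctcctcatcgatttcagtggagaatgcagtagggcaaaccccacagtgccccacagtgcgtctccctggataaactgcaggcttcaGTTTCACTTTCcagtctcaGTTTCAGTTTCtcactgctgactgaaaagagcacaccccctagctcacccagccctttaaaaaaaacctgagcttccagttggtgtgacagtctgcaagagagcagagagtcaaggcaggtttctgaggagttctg
Irf1, a transcription factor of the interferon response, read 391.2 and 544.9 in double KO corneas, against 1348.5 and 1391.1 in ApoeKO corneas (-1.56 ± 0.35, adjusted p = 0.0202). Oasl1 read 136.5 and 147.9 in double KO corneas, against 508 and 549.6 in ApoeKO corneas (-1.87 ± 0.38, adjusted p = 0.014), and Irf7, the transcription factor that amplifies type I interferon, read 42.8 and 61.8 in double KO corneas, against 122.7 and 158.4 in ApoeKO corneas (-1.38 ± 0.35, adjusted p = 0.0309). The element, searched on both strands, stood in 10 of 24 windows of tested interferon-stimulated genes (41.7%), against 0.819% of all 32851. Among the members that fell it stood in 3 of 8 windows (37.5%), with no match in those of Irf1, Oasl1 and Irf7. WT corneas read 107.6 and 97.3 for Ifit1, so both ApoeKO arrays lay above both WT arrays there. For Irf1 WT corneas read 1314.9 and 1166.2, and for Oasl1 478.8 and 446.7. Over the listed genes the mean log2 value was 6.19 and 6.13 in WT, against 6.96 and 7.32 in ApoeKO. It was 6.04 and 6.61 in double KO and 7.09 and 5.81 in Dscr1KO. Both ApoeKO arrays thus lay above both WT arrays, while the double KO arrays lay on either side of WT. In Dscr1KO against WT, 1 tested member rose and 0 fell, with a median of 0.17. In double KO against ApoeKO, Ifih1, Oas3 and Ddx58, which encode sensors of viral RNA, also fell, with differences of -1.42, -1.23 and -0.83. None of the 7 falls passed when either the library labelled ApoeKO replicate 1 or ApoeKO replicate 2 was left out. Without the library labelled ApoeKO replicate 1 the adjusted p was 0.0765 for Ifit1, 0.0755 for Oasl1, 0.1 for Irf1 and 0.0988 for Irf7, and the count of falls was also 0 without double KO replicate 1.

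Genes of calcineurin signalling were examined because Rcan1 acts on that enzyme. Of 16 tested, 1 rose (6.25%) and 3 fell (18.8%), Rcan1 itself among the falls, against 10.9% and 8.6% of all genes. The median difference was 0.19. Ppp3ca, the catalytic subunit of calcineurin, read 669.1 and 570.2 in double KO corneas, against 976.3 and 936.1 in ApoeKO corneas (-0.63 ± 0.16, adjusted p = 0.0328). Nfatc2, an NFAT transcription factor, read 112.9 and 95.2 in double KO corneas, against 325.4 and 283.3 in ApoeKO corneas (-1.52 ± 0.28, adjusted p = 0.00993). Fkbp1a, the binding protein through which the drug FK506 blocks calcineurin, read 833 and 761 in double KO corneas, against 305.1 and 243.3 in ApoeKO corneas (1.53 ± 0.17, adjusted p = 0.00165). Ppp3ca missed the threshold with any 1 compared array left out (adjusted p from 0.0547 to 0.187), and Nfatc2 missed the threshold without the library labelled ApoeKO replicate 1 or ApoeKO replicate 2 (adjusted p = 0.0767 and 0.065). Fkbp1a passed with each compared array left out.

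Of 19 cholesterol synthesis genes tested, 6 fell and 0 rose, with a median of -0.68. Nsdhl, a sterol dehydrogenase late in the pathway, read 277.6 and 391.8 in double KO corneas, against 767.5 and 836 in ApoeKO corneas (-1.27 ± 0.19, adjusted p = 0.00514). Tm7sf2, a sterol reductase, read 143.1 and 151.5 in double KO corneas, against 350.1 and 310.7 in ApoeKO corneas (-1.14 ± 0.15, adjusted p = 0.00349). Sqle, squalene epoxidase, read 897 and 1303.8 in double KO corneas, against 1980.7 and 2211.8 in ApoeKO corneas (-0.95 ± 0.20, adjusted p = 0.0154). Hmgcs1, the synthase that makes HMG-CoA, read 2891 and 3120.9 in double KO corneas, against 4925.1 and 4698.1 in ApoeKO corneas and did not pass (-0.68 ± 0.21, adjusted p = 0.0546). Both double KO arrays were below both ApoeKO arrays for these 4. Double KO replicate 1 was the lowest of the 4 arrays for each. Fdft1, Fdps and Sc5d, enzymes of the same pathway, also fell, with differences of -0.93, -0.84 and -1.14. With the library labelled ApoeKO replicate 1 left out, Nsdhl, Tm7sf2 and Sc5d passed (adjusted p = 0.0375, 0.0409 and 0.0491), while Sqle, Fdft1 and Fdps did not (adjusted p = 0.0769, 0.0972 and 0.0763). Nsdhl missed the threshold without ApoeKO replicate 2 (adjusted p = 0.0579), and Sc5d missed the threshold without ApoeKO replicate 2 (adjusted p = 0.0918), and Tm7sf2 was the 1 gene of the list that passed with each compared array left out. A sterol response element core (CAC, any base, then CCAC, on either strand) stood in 1 of 19 promoter windows of the tested members (5.26%) and in 0 of the 3 windows of those that fell, against 6.24% of all 32851. That share is close to the share over all promoters.

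The next list holds genes of fatty acid synthesis and of control by sterol regulatory element-binding proteins (SREBP), which switch on sterol and fatty acid synthesis. Its members also fell more often than they rose. Of 26 tested, 10 fell and 5 rose, with a median of -0.43. Acss2, which makes acetyl-CoA from acetate, read 126.1 and 238.6 in double KO corneas, against 780.3 and 654.5 in ApoeKO corneas (-2.02 ± 0.28, adjusted p = 0.00387). Insig1, which holds SREBP in the endoplasmic reticulum and is itself a target, read 575 and 618.5 in double KO corneas, against 1799.1 and 1859.3 in ApoeKO corneas (-1.61 ± 0.27, adjusted p = 0.00698). Fads2, a fatty acid desaturase, read 73.5 and 105.7 in double KO corneas, against 309.8 and 370.1 in ApoeKO corneas (-1.90 ± 0.31, adjusted p = 0.00623). Srebf1 and Srebf2, the SREBP genes, fell with differences of -0.93 and -0.81. The rises were led by Elovl4, the elongase of very long chain fatty acids in skin and retina, which read 825.8 and 863.1 in double KO corneas, against 18.1 and 7.3 in ApoeKO corneas (5.78 ± 0.75, adjusted p = 0.003). Me1, malic enzyme, read 378.8 and 399.5 in double KO corneas, against 58.8 and 45.4 in ApoeKO corneas (2.83 ± 0.26, adjusted p = 8.27e-04), and Elovl7, Dgat2 and Scap rose by 1.77, 0.90 and 0.65. Insig1 missed the threshold without ApoeKO replicate 2 (adjusted p = 0.0634), Fads2 missed the threshold without ApoeKO replicate 2 (adjusted p = 0.0634), Srebf1 missed the threshold without the library labelled ApoeKO replicate 1 or ApoeKO replicate 2 (adjusted p = 0.0806 and 0.0631), and Srebf2 missed the threshold without double KO replicate 1, the library labelled ApoeKO replicate 1 or ApoeKO replicate 2 (adjusted p = 0.0606, 0.0733 and 0.121). Elovl7, Dgat2 and Scap missed the threshold without ApoeKO replicate 2 (adjusted p = 0.0655, 0.0964 and 0.198). Acss2, Elovl4 and Me1 passed with each compared array left out, and 4 genes fell and 4 rose without the library labelled ApoeKO replicate 1. Without ApoeKO replicate 2 the counts were 2 and 2.

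**Figure D4:**
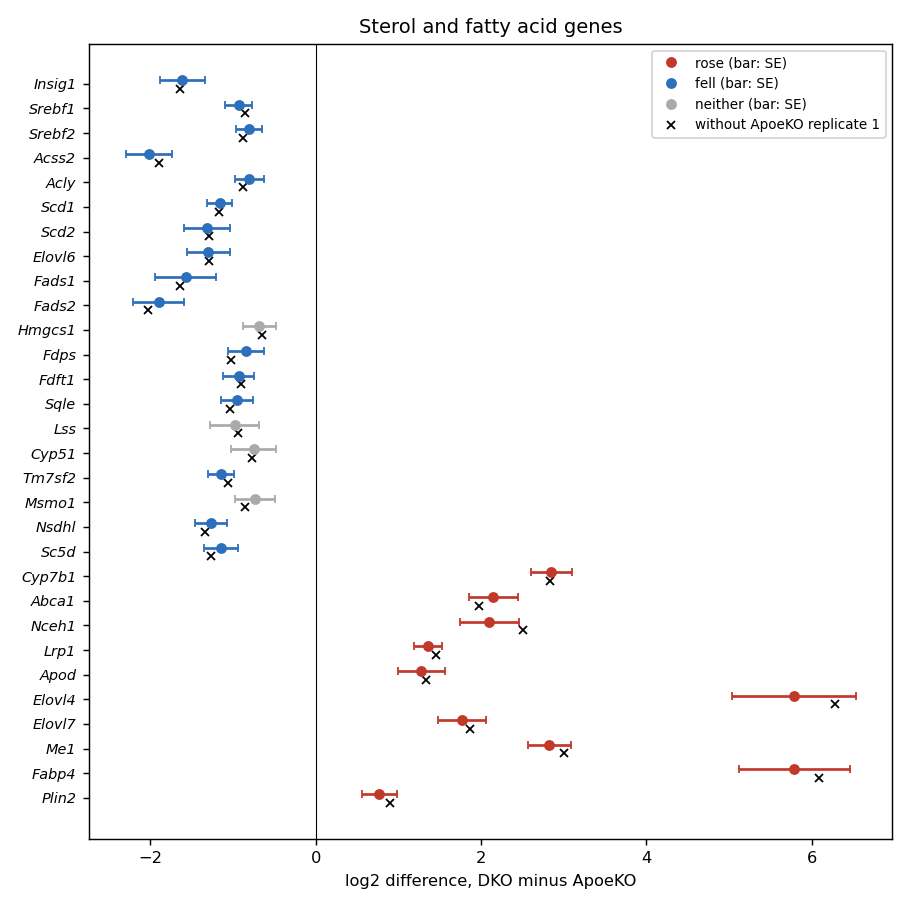
Points give the log2 difference (double KO minus ApoeKO) of sterol and fatty acid genes with SE bars, red for rises, blue for falls and grey for neither, and crosses give the difference without ApoeKO replicate 1. The genes shown were picked from their lists, so the split between them does not describe the whole lists. All tested cholesterol synthesis genes ran from -1.27 to 0.15, and all tested efflux and LXR genes from -1.66, the difference of Apoe, to 2.85. Of the genes shown, those from Insig1 to Sc5d lie between -2.02 and -0.68 and those from Cyp7b1 to Plin2 lie above 0. Each cross keeps the sign of its point.

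Genes of sterol export, degradation and lipid uptake moved upward where they passed. Of 23 efflux genes and targets of the liver X receptor (LXR), 5 rose and 0 fell, with a median of 0.22. Abca1, the pump that exports cholesterol to apolipoproteins, read 1269.5 and 1148.4 in double KO corneas, against 239.4 and 303.7 in ApoeKO corneas (2.15 ± 0.30, adjusted p = 0.00385). Cyp7b1, an oxysterol hydroxylase, read 301.2 and 341.6 in double KO corneas, against 40.7 and 41.9 in ApoeKO corneas (2.85 ± 0.25, adjusted p = 6.79e-04). Lrp1, a receptor that binds apolipoprotein E, read 734.9 and 691.4 in double KO corneas, against 296.1 and 256.6 in ApoeKO corneas (1.36 ± 0.17, adjusted p = 0.00278). Both double KO arrays exceeded both ApoeKO arrays for these genes. Apod, a lipid-binding apolipoprotein gene, and Nceh1, a cholesteryl ester hydrolase gene, rose by 1.28 and 2.10. Of 12 genes of lipid uptake and storage, 5 rose and 0 fell, led by Fabp4, a fatty acid carrier of adipocytes, macrophages and capillary endothelium, which read 1379.3 and 449 in double KO corneas, against 14 and 8 in ApoeKO corneas (5.79 ± 0.67, adjusted p = 0.00193). Msr1, a scavenger receptor of macrophages, read 57.2 and 77.9 in double KO corneas, against 18.9 and 2.4 in ApoeKO corneas (2.60 ± 0.60, adjusted p = 0.0221), and Msr1 missed the threshold without double KO replicate 1, double KO replicate 2 or ApoeKO replicate 2 (adjusted p = 0.0692, 0.0855 and 0.1). Cidea, Plin2 and Dgat2, all of lipid droplets, were the other rises, at 2.80, 0.77 and 0.90. Without ApoeKO replicate 2, fewer of either list rose. ApoeKO was then the library labelled ApoeKO replicate 1 alone, which had Apoe and Apoc1 at the WT level. Falls in that fit are therefore not read as falls of efflux genes or LXR targets. Apod and Nceh1 missed the threshold without ApoeKO replicate 2 (adjusted p = 0.128 and 0.0663). Abca1, Cyp7b1, Lrp1 and Fabp4 passed with each compared array left out. The summed endothelial and macrophage lists were higher on the same arrays, as given above, and their part in the rises of Fabp4, Msr1 and Abca1 was not tested.

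Antioxidant genes were divided. Of 28 tested, 9 rose and 2 fell, and 4 rose and 1 fell without the library labelled ApoeKO replicate 1. Gpx2, an epithelial glutathione peroxidase, read 1101.9 and 945.4 in double KO corneas, against 8.3 and 6.3 in ApoeKO corneas (6.56 ± 0.24, adjusted p = 1.79e-05). Gpx3, the secreted form, read 868.4 and 464.4 in double KO corneas, against 18.3 and 5.8 in ApoeKO corneas (5.48 ± 0.77, adjusted p = 0.00414). Gsta2, a glutathione transferase, fell and read 712.1 and 928 in double KO corneas, against 3045.1 and 3129.9 in ApoeKO corneas (-1.92 ± 0.30, adjusted p = 0.00562), and Gpx4, which protects membranes from lipid peroxides, fell by a smaller step (-0.75 ± 0.15, adjusted p = 0.0137). Hmox1, haem oxygenase, rose by 2.55. Gsta2 missed the threshold without ApoeKO replicate 2 (adjusted p = 0.053), Gpx4 missed the threshold without double KO replicate 2, the library labelled ApoeKO replicate 1 or ApoeKO replicate 2 (adjusted p = 0.0507, 0.118 and 0.0858), and Hmox1 missed the threshold without ApoeKO replicate 2 (adjusted p = 0.0554). Gpx2 and Gpx3 passed with each compared array left out.

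Of 17 circadian genes tested, 4 fell and 1 rose. Dbp, a PAR-domain transcription factor of clock output, read 533.8 and 846.4 in double KO corneas, against 2159.2 and 1912.7 in ApoeKO corneas (-1.59 ± 0.23, adjusted p = 0.00433), and its relatives Hlf (-1.68 ± 0.38, adjusted p = 0.0209) and Tef (-0.85 ± 0.20, adjusted p = 0.0224) fell too, as did the period gene Per3 (-0.87). Nfil3, which competes with them for the same sites, read 289.9 and 107.8 in double KO corneas, against 2.7 and 4.2 in ApoeKO corneas (4.69 ± 0.47, adjusted p = 0.00107). Dbp and Nfil3 passed with each compared array left out. Hlf missed the threshold without the library labelled ApoeKO replicate 1 or ApoeKO replicate 2 (adjusted p = 0.12 and 0.0996), and Tef missed the threshold without double KO replicate 1, the library labelled ApoeKO replicate 1 or ApoeKO replicate 2 (adjusted p = 0.103, 0.0633 and 0.178). Per3 missed the threshold without double KO replicate 2, the library labelled ApoeKO replicate 1 or ApoeKO replicate 2 (adjusted p = 0.0994, 0.086 and 0.194). The labels give no hour of dissection. Of 24 proliferation genes, Ccnd1, cyclin D1, fell (-1.06 ± 0.17, adjusted p = 0.00607), 0 rose, and Ccnd1 missed the threshold without ApoeKO replicate 2 (adjusted p = 0.0668). Of 20 immediate early genes, Nr4a1, Egr3, Klf2 and Myc rose by 3.88, 2.58, 1.73 and 0.88, and Fosl2 fell (-0.92). When the library labelled ApoeKO replicate 1 was left out, 1 of these rose and 0 fell, and without ApoeKO replicate 2 both counts were 0. Of 9 nerve and Schwann cell genes, 2 rose and 0 fell, with a median of -0.03 and differences from -2.9 to 3.27. Cdh19, a cadherin of Schwann cells, rose and read 74.7 and 51.9 in double KO corneas, against 3.9 and 2.6 in ApoeKO corneas (3.27 ± 0.39, adjusted p = 0.00206). Pmp22, a myelin protein gene, rose by 1.21. Cdh19 and Pmp22 passed with each compared array left out.

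Lens and retinal genes, which can reach a dissected cornea from the tissue behind it, were read for each array. The 21 listed lens genes summed to 590.6 and 574.8 in double KO and 2253.7 and 1664 in ApoeKO, against 16277.1 and 11658.6 in WT. Of 16 tested, 3 fell and 0 rose. Cryab, a small heat shock protein that many tissues make, read 356.5 and 464.3 in double KO corneas, against 1491.4 and 1462.2 in ApoeKO corneas (-1.85 ± 0.21, adjusted p = 0.00168), and passed with each compared array left out. Crygd, a lens crystallin gene, and Bfsp2, of the lens cytoskeleton, also fell (-2.41 and -1.61). Crygd missed the threshold without double KO replicate 1, double KO replicate 2 or the library labelled ApoeKO replicate 1 (adjusted p = 0.057, 0.119 and 0.139), and Bfsp2 missed the threshold without double KO replicate 1, the library labelled ApoeKO replicate 1 or ApoeKO replicate 2 (adjusted p = 0.0964, 0.167 and 0.0986). Of 14 photoreceptor genes, Abca4 rose (4.27 ± 0.90, adjusted p = 0.0157), with 294.6 and 32.6 in the double KO replicates, and Abca4 missed the threshold without the library labelled ApoeKO replicate 1 or ApoeKO replicate 2 (adjusted p = 0.0801 and 0.0964). The list rested on double KO replicate 1. Its median was 1.76, and -0.35 without that array. Without double KO replicate 2, 11 of the list rose, with a median of 3.65, and the same held with a term for Xist. Pdc, a photoreceptor phosphoprotein, read 1707.2 and 7.3 in double KO corneas, against 8.9 and 11.9 in ApoeKO corneas and did not pass (3.29 ± 2.11, adjusted p = 0.309). Of 11 pigment cell genes, Mitf rose (1.93) and Tyrp1 and Best1 fell (-1.54 and -1.78). Of 6 skeletal muscle genes Tnni2 fell (-1.66), of 3 lacrimal gland genes Aqp5 and Csn3 fell (-1.02 and -3.40), and 0 of 5 red blood cell genes were bright enough to be tested. Mitf, Tyrp1, Best1 and Tnni2 missed the threshold without ApoeKO replicate 2 (adjusted p = 0.075, 0.181, 0.148 and 0.0514). Csn3 missed the threshold without the library labelled ApoeKO replicate 1 (adjusted p = 0.0511).

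Mice without Dscr1 but with Apoe give a second comparison, Dscr1KO against WT, which shares no array with this comparison but is tested in the same fit. Across the 12711 genes, the differences of double KO minus ApoeKO and of Dscr1KO minus WT were correlated, with r of 0.82 (Pearson) and rho of 0.71 (Spearman), as a description across genes, which are not independent replicates and were fitted together. Of the 1383 rises, 786 (56.8%) also rose in Dscr1KO against WT, which is 79.5% of the 989 rises there. Of the 1093 falls, 280 (25.6%) also fell, which is 56.8% of the 493 falls there. The counts of that comparison depended on single arrays. Without WT replicate 1 there were 319 rises and 26 falls, and without WT replicate 2 there were 240 and 23. Without Dscr1KO replicate 1 there were 1792 rises and 2057 falls, and without Dscr1KO replicate 2 there were 825 and 270. The falls numbered 181 and 178 without the library labelled ApoeKO replicate 1 and without ApoeKO replicate 2, which enter through the shared spread. With a term for Xist there were 264 rises and 122 falls. Only the double KO replicates differ from each other in Xist, so that term carries their difference. It does not adjust Dscr1KO against WT for Xist. Lor read 1862.9 and 1944.5 in Dscr1KO, against 10.8 and 14.1 in WT, and Rptn read 1478 and 1715.9 in Dscr1KO, against 4.2 and 0.7 in WT. Vwf read 182.3 and 230.5 in Dscr1KO, against 6 and 2.1 in WT, and S100a8 read 3892.7 and 9010.6 in Dscr1KO, against 24.6 and 19.5 in WT. Each of these 4 was high on both Dscr1KO arrays and low on both WT arrays. For the 2 falls that follow, the Dscr1KO replicates differed more. Ppp1r3c read 2327.5 and 183 in Dscr1KO, against 4731.1 and 3780.1 in WT, and Slurp1 read 4310 and 2349.2 in Dscr1KO, against 6236.7 and 5069.1 in WT. The source label of Dscr1KO replicate 2 reads ApoE-/- while its title and genotype read Dscr1KO and Dscr-1-/-, and Apoe read 316.8 there and 1272 in Dscr1KO replicate 1. Xist separates both Dscr1KO from both WT arrays, so Xist and genotype cannot be told apart in that comparison. In double KO against ApoeKO, leaving out double KO replicate 2 leaves only arrays with high Xist, and 2076 genes passed then.

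**Figure D5:**
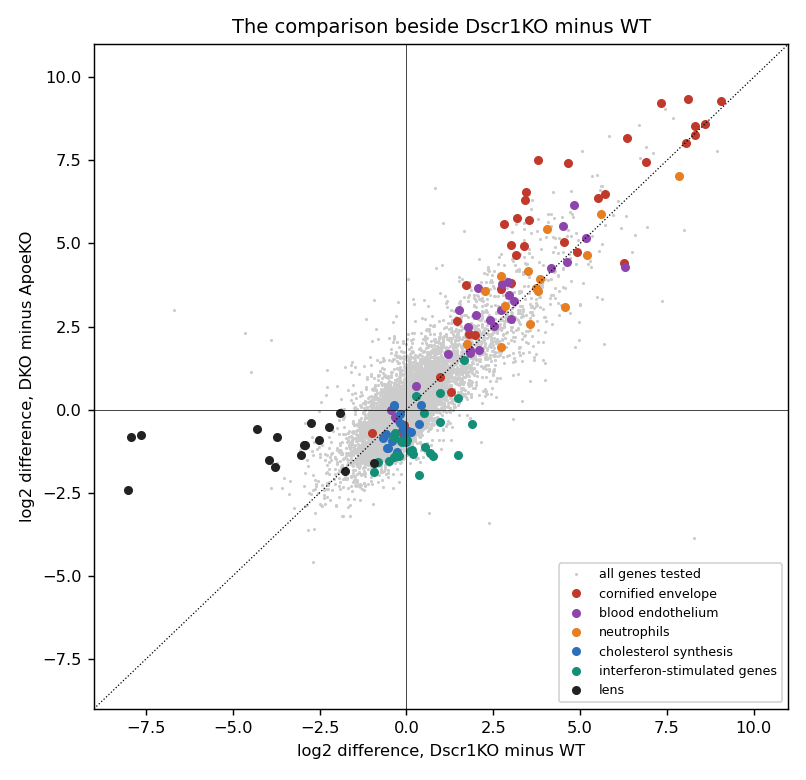
Each point is 1 of the 12711 genes, with the log2 difference of Dscr1KO minus WT on the horizontal axis, that of double KO minus ApoeKO on the vertical axis and the dotted line marking equal differences. Cornified envelope, endothelial and neutrophil genes lie high on both axes, and lens genes lie to the left, between -2.41 and -0.11 on the vertical axis.

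The 2 differences were then compared directly, which asks whether the effect of Dscr1 loss depends on the Apoe label. Of 12711 genes, 1 passed (0.00787%, limma with Benjamini-Hochberg adjustment), with 964 at an unadjusted p under 0.05. It was the lens crystallin gene Crygf, with 3.3 and 3.9 in double KO, against 12.5 and 5.8 in ApoeKO. It read 2.1 and 2.4 in Dscr1KO, against 1522.3 and 884.9 in WT, so WT arrays were the high ones, and the difference of differences was 6.86 ± 0.53, adjusted p = 0.0199. For Lor it was 0.55 ± 0.24, adjusted p = 0.658, for Vwf 1.34 ± 0.47, adjusted p = 0.599 and for Sqle -0.54 ± 0.28, adjusted p = 0.701. A difference that misses the threshold with 2 arrays per group does not show that the effects are equal. Without the library labelled ApoeKO replicate 1, without ApoeKO replicate 2, or without either WT replicate, 0 genes passed. Without Dscr1KO replicate 1 or 2, 19 and 50 passed, and without double KO replicate 1 or 2, 6 and 15.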

How the data were processed

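Whole corneas were hybridised to Affymetrix arrays from 100 ng of total RNA, per the labels' protocols. The deposited values are linear probe-set intensities, made by software not given in the sources used here, and hold the same mean on every array after 2% was trimmed at each end, as found from the values. The files give no depth, so the number of arrays limits the precision.

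A single gene symbol was required of a probe set (932 had several and 9211 none), and the brightest probe set stood for a gene. Values were log2-transformed after adding 3.6, the 20th percentile of all values. Genes with a mean log2 value under the 40th percentile of all probe sets were left out, which left 12711 of 18194. Of the genes that changed, 1445 had several probe sets, and 2 had another tested one that moved the other way. The 8 intact arrays were fitted with limma 3.58.1 (lmFit, eBayes with an intensity trend) in R 4.3.3, with 1 coefficient for each genotype and no covariate, and p-values were adjusted over all genes tested. The 4 sutured arrays are single and were not fitted.

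Members and lists were chosen with earlier results of these data known. Genes named in the text are Rcan1 and Apoe, the 25 largest rises and falls, the 15 lowest p and members of the lists. List members were picked after their values were seen, as examples beside the list's count. Motifs were searched in RefSeq promoter windows of GRCm38.p6 on both strands. The alternatives were filters, pseudocounts, quantile normalization, no intensity trend, array weights, a replicate block, a term for Xist, every probe set, the 4 compared arrays alone, and leaving out arrays. Nothing in the labels ties the 2 replicates of a group to separate litters or days, so p-values measure the spread between these animals.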

Additional observations from a re-analysis of the deposited data

Results flagged for a closer look

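Crygf, a lens crystallin gene, stood out because it was the 1 gene that passed the test of the difference of differences. It read 3.3 and 3.9 in double KO, against 12.5 and 5.8 in ApoeKO. In the other pair it read 2.1 and 2.4 in Dscr1KO, against 1522.3 and 884.9 in WT. Only the WT arrays read above the array median, so the test rests on them. Whether an effect of Dscr1 loss on this gene depends on Apoe cannot be told from it. The difference of double KO minus ApoeKO minus that of Dscr1KO minus WT was 6.86 ± 0.53, adjusted p = 0.0199 (limma, Benjamini-Hochberg). The listed lens genes summed to 1212.9 and 1382.9 in Dscr1KO, against 16277.1 and 11658.6 in WT, and their part in this difference was not tested.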

How the results depend on the processing

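With 2 arrays in a group, the count of genes that changed between double KO and ApoeKO depended most on which arrays entered. With 1 intact array left out it ran from 516 to 3918. It was 1939 without both libraries of doubtful label, the library labelled ApoeKO replicate 1 and Dscr1KO replicate 2, and 1653 of these were among the 2476. With the 4 compared arrays alone it was 2801, and with array weights it was 3238. It ran from 1993 to 2469 under the filters, pseudocounts, quantile normalization (2424) and the fits with no intensity trend or with a term for Xist (2065). The term for Xist is set by the double KO replicates alone, here and in the difference of differences below. It is therefore no separate adjustment for Xist. Replicate numbers did not pair the samples: replicate differences of any 2 groups correlated between -0.05 and 0.07, and with a replicate block 2157 genes passed.

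The test of the difference of differences gave 1 gene, as it did with quantile normalization, a pseudocount of 1 and no intensity trend. The count was 2 with no filter, 0 with the filter at the 60th percentile, 4 with a pseudocount of 10, 7 with array weights, 2 with a replicate block, 22 with a term for Xist, 0 without both libraries of doubtful label, and 0 to 50 with 1 array left out.

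Signs turned for 6 named genes. With 1 array left out, Apoe ran from -4.79 to 1.47 and Apoc1 from -4.22 to 1.32, both positive without the library labelled ApoeKO replicate 1 and also without both doubtful libraries. Eif2s3y ran from -0.04 (without double KO replicate 2, or with a term for Xist) to 6.03. Krt12 ran from -0.28 to 0.10 (without double KO replicate 2, or with a term for Xist), and was 0.03 with quantile normalization and 0.02 without the doubtful libraries. Pdc ran from -0.35 (without double KO replicate 1) to 6.94. Erg ran from -0.07 to 0.04 (without double KO replicate 2 or the library labelled ApoeKO replicate 1, without the doubtful libraries, or with a term for Xist). None of the other named genes changed sign under any setting run, but 100 lost their call without ApoeKO replicate 2 and 74 without the library labelled ApoeKO replicate 1. The cause of these changes was not tested.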

Other observations

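A few genes moved in opposite directions in the pair of comparisons. Ang, an angiogenin gene, rose in double KO, with 959.2 and 492.6 in double KO and 182.5 and 135.5 in ApoeKO, and fell in Dscr1KO, with 1.3 and 7.9 in Dscr1KO, against 114.5 and 101.5 in WT. Csn3, a casein gene that the lacrimal gland list holds, read 3.5 and 8 in double KO corneas, against 112.8 and 75.1 in ApoeKO corneas, and 30.9 and 104.1 in Dscr1KO, against 6.9 and 9.6 in WT. B3gat1, which makes a carbohydrate of neural cells, read 45.6 and 18.5 in double KO, against 8 and 9.4 in ApoeKO, and 13.4 and 12.7 in Dscr1KO, against 52.9 and 40.2 in WT. These 3 were the genes that passed in both comparisons with opposite signs, and their differences of differences did not pass (adjusted p = 0.0782 for Ang, 0.0985 for Csn3 and 0.34 for B3gat1). For Csn3 the Dscr1KO arrays were high and the WT arrays low, while both double KO arrays were below both ApoeKO arrays.

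Klra8 was bright on both ApoeKO arrays, and it read 149.3 and 16.4 in Dscr1KO, against 33.5 and 29.3 in WT. In Dscr1KO the replicates stood far apart for this gene, as they did for the 17 listed lymphocyte genes, which summed to 5536.1 and 507 in Dscr1KO and 148.8 and 133.5 in WT.

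The 4 sutured corneas have 1 array each, so these values carry no test. The 39 listed cornified envelope genes summed to 5554.5 in the sutured Dscr1KO cornea at day 5, against 8911.1 in the sutured WT cornea of that day. At day 7 they summed to 10077.1 in the sutured Dscr1 transgenic cornea, against 7488 in the sutured WT cornea. Both double KO sums of intact cornea, 84043.4 and 68830.8, were above all 4. Lor read 8.6 in the sutured Dscr1KO cornea, against 12.6 in the sutured WT cornea at day 5, and Krt4 read 5305.7, against 2983.2. The sutured Dscr1KO array had an Xist intensity of 6, unlike the intact Dscr1KO arrays.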
